A study of Mus musculus with 17 samples.

Results

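Clusters 4 and 8 of a mouse brain scRNA-seq experiment were compared gene by gene in 2 libraries, one from the 6-OHDA-induced PD model and one from the same model after NDST3 treatment. For each gene, the level in cluster 8 was subtracted from the level in cluster 4 within each library, and a difference counted where it had the same sign in both libraries. Of 26646 genes, 10047 met this rule, of which 4458 were higher in cluster 4 (16.7% of all genes) and 5589 were higher in cluster 8 (21.0%). A further 5456 genes had opposite signs in the 2 libraries, and 6700 were listed at 0 in all 4 columns.

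Both libraries came from female wild-type ICR mice that were 8 weeks old when 6-OHDA, at 10 µg/µl, was injected into the substantia nigra of one side, a toxin lesion of catecholamine neurons that all compared cells share. In the NDST3-treated PD model, 2 µl of an AAV that expresses human NDST3 from the CMV promoter was injected into the substantia nigra 5 days later, and the other mice received saline. There was 1 library per group, so no difference below carries a test. The only spread is the distance between the libraries, which also differ in NDST3 treatment, so it is not a measure of error alone. The sham library of scRNA-seq was not analysed here.

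A level is the mean, over the cells of a cluster in 1 library, of the natural log of 1 plus the UMIs (molecules counted by their tag) per 10000 of that cell, and a difference is a difference of 2 such levels. Because logs were averaged over cells, no fold change is given, and more cells with a transcript cannot be told apart from more transcript per cell. Neither the number of cells nor the depth per cell is in the table. The lowest level above 0 was 0.0037 in cluster 4 of the 6-OHDA library and 0.00021 in that of the 6-OHDA+NDST3 library, where 12929 and 17639 genes had a level above 0. In cluster 8 these values were 0.0015 and 0.00053, with 15226 and 17525 genes.

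T cells recognise antigen through a T cell receptor whose alpha and beta (or gamma and delta) chains are carried to the membrane by the CD3 chains, and the kinases Lck and Zap70 pass the signal to the adaptor Lat. Natural killer cells and innate lymphoid cells lack this receptor and signal largely through adaptors such as Tyrobp (DAP12) and Fcer1g. Few lymphocytes are found in the healthy brain parenchyma, and more of them enter after neuronal injury. Clusters made from the same cells and genes differ by construction, so the values below describe the clusters and test nothing.

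The lymphoid label was read against 14 T cell markers. In all 14, cluster 4 was the highest and cluster 8 the next highest of the 9 clusters, and both cluster 4 levels lay above both cluster 8 levels. The lowest of these levels was 0.30, for Themis in cluster 8, while the highest mean level of any of these markers in the other 7 clusters was 0.40, for Cd2 in cluster 9. Summed over the 14 markers, the level was 19.0 in the 6-OHDA library and 24.2 in the 6-OHDA+NDST3 library in cluster 4, against 10.3 and 14.5 in cluster 8. Profiles over all genes were close, with Pearson's r across genes of 0.980 and 0.974 in the 2 libraries, and genes are not independent replicates.

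Neuronal markers were near 0 in both clusters. None of 10 neuron markers was above 0.1 in any of the 4 columns, and their summed level was at most 0.035. Th, the rate-limiting enzyme of dopamine synthesis, was listed at 0 in all 4 columns, and of 11 dopaminergic neuron markers Nr4a2 alone exceeded 0.1. The study marks both clusters by Nr4a2, Zeb1 and Camk4, and each of these was higher in cluster 4 in both libraries. Camk4, a calcium-dependent kinase of T cells and neurons, stood at 2.08 and 2.15 in cluster 4 (6-OHDA library first, as in every pair of values that follows) and at 1.43 and 1.53 in cluster 8. Zeb1, a zinc-finger repressor, stood at 2.04 and 2.02 against 1.68 and 1.59.

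Most genes differed little between the clusters. Of the 7164 genes with a level above 0.1 in at least 1 of the 4 columns, called detected below, 42.9% were higher in cluster 4 in both libraries and 25.8% were higher in cluster 8. The median difference over detected genes was 0.016 in the 6-OHDA library and 0.013 in the 6-OHDA+NDST3 library. The 2 libraries' differences were 0.050 apart at the median gene and 0.197 apart at the 95th percentile, so a difference of at least 0.5 in both libraries was called large. By that size, 43 detected genes (0.600%) were higher in cluster 4 and 5 (0.0698%) were higher in cluster 8. At 0.25 the counts were 216 (3.02%) and 71 (0.991%). When every column was scaled to a common back-transformed total, 23 and 13 genes passed 0.5, so that the share on the side of cluster 4 went from 89.6% to 63.9%, and 20.1% and 47.7% of detected genes kept 1 sign toward cluster 4 and cluster 8. Just inside the size of 0.5 were Dusp2, with differences of 0.57 and 0.50, and Ablim1, with 0.54 and 0.51. Just outside were Skap1, with 0.69 and 0.49, and Klrc1, with 0.49 and 0.82.

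**Figure D1:**
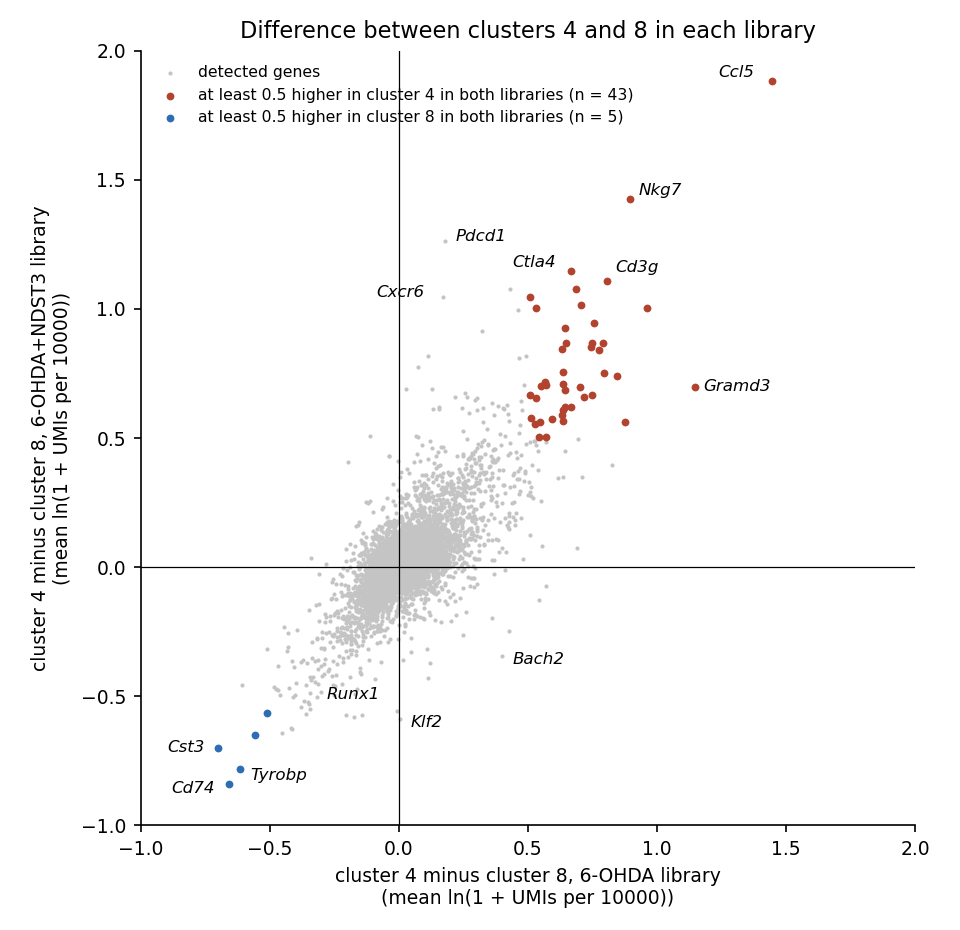
Each point is 1 detected gene, with its difference in the 6-OHDA library on the x axis and in the 6-OHDA+NDST3 library on the y axis, both in mean ln(1 + UMIs per 10000). Ccl5 and Nkg7 lie farthest toward cluster 4, Cd74, Cst3 and Tyrobp farthest toward cluster 8, and Pdcd1, Cxcr6, Bach2, Klf2 and Runx1 lie off the diagonal.

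The T cell receptor machinery had the highest median difference of the lists of lymphocyte function. Of 23 genes of the TCR-CD3 complex and its proximal signalling, 22 were higher in cluster 4 in both libraries and none was higher in cluster 8, and 10 of them by at least 0.5. The median difference of the list was 0.59, against 0.015 over all detected genes, and all 23 members were detected. The exception was Txk, a Tec-family kinase, at 1.08 and 0.38 in cluster 4 and 0.81 and 0.55 in cluster 8. In cluster 8 all 23 genes were above 0.1 as well, in both libraries.

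The CD3 chains carry the signal motifs of the receptor. Cd3g stood at 1.85 and 2.67 in cluster 4 and at 1.04 and 1.56 in cluster 8. Cd3d stood at 1.65 and 1.89 against 0.85 and 1.14, and Cd3e at 1.62 and 2.17 against 0.87 and 1.30. For all 3 genes the lowest cluster 4 level lay above the highest cluster 8 level, by the smallest margin in Cd3g. The zeta chain gene Cd247 differed less, with levels of 0.86 and 1.02 against 0.64 and 0.84, or 0.22 and 0.19 as differences.

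Cd3g, Cd3d and Cd3e are neighbours in 40.1 kb of mouse chromosome 9 (44969572 to 45009663, GRCm38.p6, the build also named mm10). Cd3g and Cd3d start 1355 bases apart on opposite strands. The 250 bases upstream of each start are shown because the 2 genes are close neighbours with large differences. Capitals mark a GATA motif (AGATAA) in Cd3g and a TCF motif (CTTTGAT, on the other strand) in Cd3d. Over all genes with a promoter, 12.7% held the GATA and 4.29% the TCF motif on either strand, to 50 bases past the start. Among the genes with a large difference toward cluster 4, 25 had a promoter, and 3 and 2 of these held the motifs. Positions are chr9:44980432-44980681 on the minus strand and chr9:44981536-44981785 on the plus strand, from RefSeq.
Cd3g: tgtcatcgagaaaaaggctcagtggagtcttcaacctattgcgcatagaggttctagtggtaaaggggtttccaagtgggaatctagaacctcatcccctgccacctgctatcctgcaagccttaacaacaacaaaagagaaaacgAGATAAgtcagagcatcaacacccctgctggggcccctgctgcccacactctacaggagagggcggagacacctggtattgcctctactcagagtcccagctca
Cd3d: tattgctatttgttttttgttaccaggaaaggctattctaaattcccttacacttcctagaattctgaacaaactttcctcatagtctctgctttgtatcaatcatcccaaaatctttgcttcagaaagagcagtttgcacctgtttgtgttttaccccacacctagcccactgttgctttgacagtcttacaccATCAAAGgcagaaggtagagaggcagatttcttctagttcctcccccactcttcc

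The chains that bind antigen followed the same order. Trac, the constant region of the alpha chain, stood at 1.17 and 1.88 in cluster 4 and 0.54 and 1.03 in cluster 8. Trbc2, of the beta chain, stood at 1.93 and 2.18 against 1.19 and 1.51, and Trbc1 at 1.23 and 1.37 against 0.80 and 0.89. Trbc1 and Trbc2 are near-identical copies, so reads could be split between them. Lck stood at 1.54 and 1.78 against 0.90 and 1.09, and Themis, needed for thymocyte selection, at 1.05 and 1.73 against 0.30 and 0.78. Among the large differences were also Cd2 and Cd6, while the differences of Zap70 were 0.16 and 0.30 and those of Fyn 0.16 and 0.11. Fyn had a mean level of 1.49 in cluster 9 too, near that of cluster 8.

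Costimulation and its brakes shared this direction in part. Icos, an inducible costimulator, stood at 2.07 and 2.47 in cluster 4 and at 1.39 in both libraries in cluster 8. Ctla4, an inhibitory receptor for the same ligands as Cd28, stood at 1.25 and 2.38 against 0.59 and 1.23. Cd28 itself stood at 1.60 and 1.40 against 0.77 and 1.01, and the 3 genes lie in 254 kb of chromosome 1 (60746388 to 61000322, GRCm38.p6). Ctla4 was the only member of 15 checkpoint and chronic stimulation genes with a large difference. Of the 15, 9 were higher in cluster 4 and 3 in cluster 8, against 42.9% and 25.8% of detected genes, and their median difference was 0.033.

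Coreceptors separated CD8 from CD4. Cd8b1 stood at 0.68 and 1.44 in cluster 4 and 0.17 and 0.39 in cluster 8, and Cd8a at 0.50 and 1.25 against 0.18 and 0.33. Cd4, in contrast, stood at 0.26 and 0.28 against 0.13 and 0.37, so its order differed between the libraries. Cd8a and Cd8b1, which together form the coreceptor for MHC class I, are neighbours in 56.4 kb of chromosome 6 (71322788 to 71379171, GRCm38.p6). Foxp3, which defines regulatory T cells, was low in all 4 columns, from 0.050 to 0.11. Of 11 regulatory T cell genes, 7 were higher in cluster 4 and 1 in cluster 8, none by 0.5, and the median difference was 0.040. Before scaling, 42.9% and 25.8% of detected genes were higher in cluster 4 and cluster 8. After scaling to a common total the counts were 3 and 2, against 20.1% and 47.7% of detected genes, and the median was 0.0094.

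**Figure D2:**
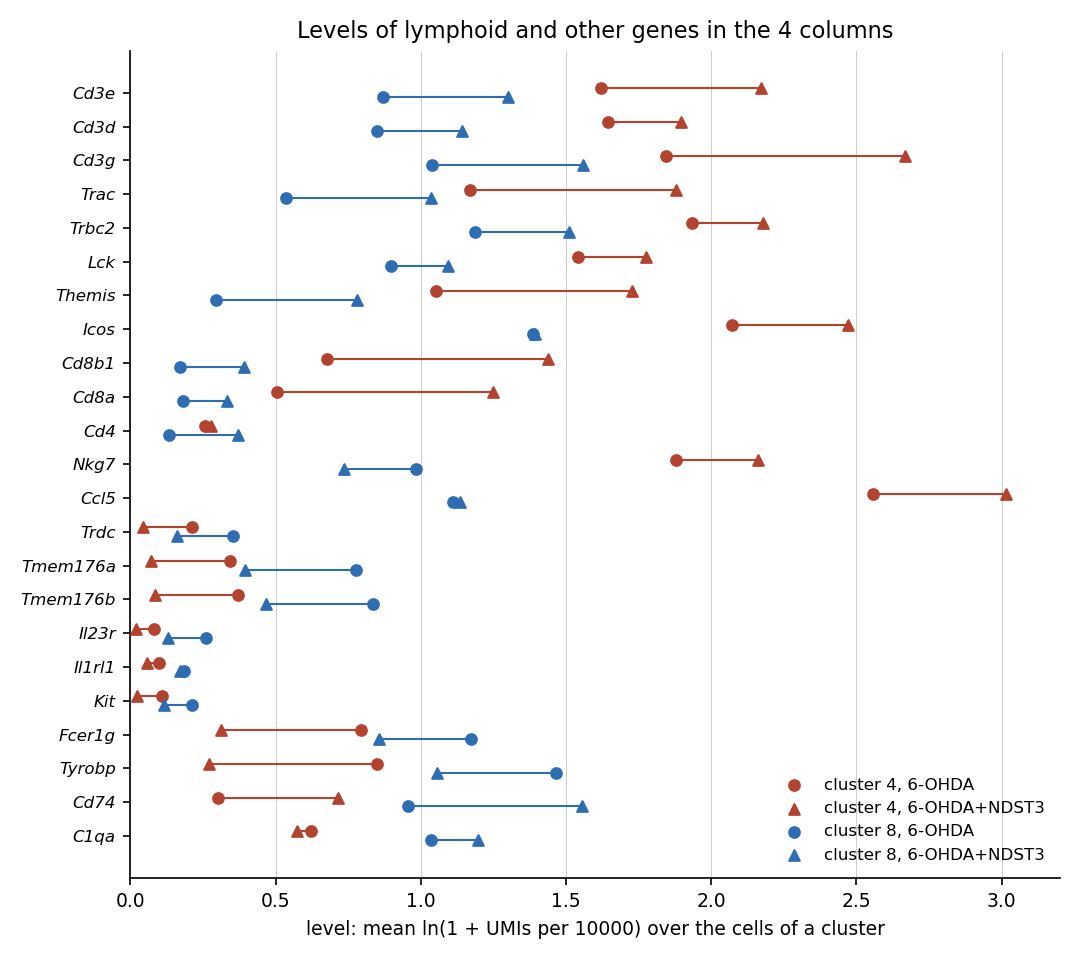
Levels of 23 genes in the 4 columns, in mean ln(1 + UMIs per 10000), with circles for the 6-OHDA library and triangles for the 6-OHDA+NDST3 library and a line joining the libraries of a cluster. From Cd3e to Ccl5, leaving out Cd4, both cluster 4 points lie to the right of both cluster 8 points, while from Fcer1g to C1qa the order turns.

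Genes of killing and migration were the next group. Ccl5, a chemokine stored by effector T and natural killer cells, had the largest difference of any gene, with levels of 2.56 and 3.02 in cluster 4 and 1.11 and 1.13 in cluster 8. Nkg7, a granule membrane protein of cytotoxic lymphocytes, stood at 1.88 and 2.16 against 0.98 and 0.74. Ctsw and Fasl differed by 0.48 and 0.71 and by 0.41 and 0.62. Gzmk stood at 0.52 and 0.43 in cluster 4 and 0.06 and 0.09 in cluster 8, whereas the order of Gzma differed between the libraries, with 0.25 and 0.22 against 0.37 and 0.16. Of 12 cytotoxic genes, 9 were higher in cluster 4, 1 (Lamp1, a lysosomal protein of most cells) was higher in cluster 8, and the median difference was 0.23. Among detected genes, 42.9% were higher in cluster 4 and 25.8% in cluster 8.

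The 250 bases upstream of Nkg7 (chr7:43436888-43437137, plus strand, GRCm38.p6, RefSeq) are shown because Nkg7 had the largest difference of the genes with a promoter in the reference used, and capitals mark a T-box motif (AGGTGTGA).
Nkg7: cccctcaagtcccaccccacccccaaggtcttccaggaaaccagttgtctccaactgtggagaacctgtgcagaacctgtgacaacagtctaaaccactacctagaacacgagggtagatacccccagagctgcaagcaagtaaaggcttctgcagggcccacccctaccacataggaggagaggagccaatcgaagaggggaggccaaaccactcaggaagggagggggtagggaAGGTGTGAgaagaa
Tbx21, which encodes the T-box factor T-bet, stood at 0.84 and 0.80 in cluster 4 and 0.44 and 0.33 in cluster 8. Eomes, its relative, stood at 0.26 and 0.05 against 0.16 and 0.07. The T-box motif was in the 300-base promoters (either strand, to 50 bases past the start) of 1 of the 25 genes with a promoter among the 43 with a large difference toward cluster 4, and of 1.48% of all 27025 genes with a promoter. With 1 gene behind it, that share describes Nkg7 alone.

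Signalling genes beyond the receptor completed the cluster 4 side. Among the 15 genes with the largest differences, Ms4a4b, a membrane protein of T cells, stood at 2.04 and 2.29 in cluster 4 and 1.07 and 1.29 in cluster 8. Ptpn22, a phosphatase that restrains receptor signalling, stood at 2.10 and 2.20 against 1.31 and 1.34, and the adaptor Grap2 at 1.84 and 2.02 against 1.00 and 1.28. The protein kinase C gene Prkch, Gramd3, Atxn1, AW112010 and Cd52 filled the list, with mean differences from 0.79 to 0.92. Gramd3 was the only one of the 15 with a gap wider by over 0.4 in the 6-OHDA library (1.15) than in the 6-OHDA+NDST3 library (0.70). Hcst, which encodes DAP10, the adaptor of the killer receptor Klrk1, was also higher in cluster 4, at 1.33 and 1.37 against 0.80 and 0.72, and was singled out after its values were seen.

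Among tissue residency genes, the large difference was that of Rgs1. Rgs1, a brake on chemokine receptor signalling, stood at 2.05 and 2.21 in cluster 4 and 1.48 and 1.50 in cluster 8. Of 14 residency genes, 11 were higher in cluster 4 and none in cluster 8, against 42.9% and 25.8% of detected genes, with a median difference of 0.17. That median was 0.062 in the 6-OHDA library and 0.28 in the 6-OHDA+NDST3 library, and after scaling to a common total it was 0.084. With that scaling, 8 genes were higher in cluster 4 and 1 in cluster 8, against 20.1% and 47.7% of detected genes. Zfp683, a factor of resident CD8 T cells, was near 0 in all 4 columns. Itgae stood at 0.10 and 0.43 against 0.07 and 0.16, and Itga1 at 0.45 and 0.64 against 0.13 and 0.17.

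Of the cytokine receptors, Ifngr1 had a large difference, at 2.41 and 2.16 against 1.86 and 1.46. Its partner chain Ifngr2 had the opposite order, at 0.11 and 0.09 in cluster 4 and 0.46 and 0.52 in cluster 8. Il21r, Il18r1 and Il12rb2 were higher in cluster 4, with mean differences of 0.64, 0.48 and 0.34. Of 34 receptors, 13 were higher in cluster 4 and 17 in cluster 8, against 42.9% and 25.8% of detected genes, with a median difference of -0.026. Of 33 chemokines and cytokines, 7 were higher in cluster 4 and 20 in cluster 8, and 15 of the 33 were never above 0.1. Over all genes the shares were 16.7% and 21.0%.

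No transcription factor of lymphocytes differed by 0.5 in both libraries. Of 42, 21 were higher in cluster 4 and 10 in cluster 8, shares near the 42.9% and 25.8% of detected genes, with a median difference of 0.039. After scaling to a common total the counts were 15 and 14, against 20.1% and 47.7% of detected genes, with a median of 0.012. Stat4 differed by 0.47 and 0.55, Ets1 by 0.51 and 0.48, and Rora by 0.33 and 0.36. Irf8, a factor of myeloid and B cells, had the opposite order, at 0.32 and 0.18 in cluster 4 and 0.83 and 0.50 in cluster 8.

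**Figure D3:**
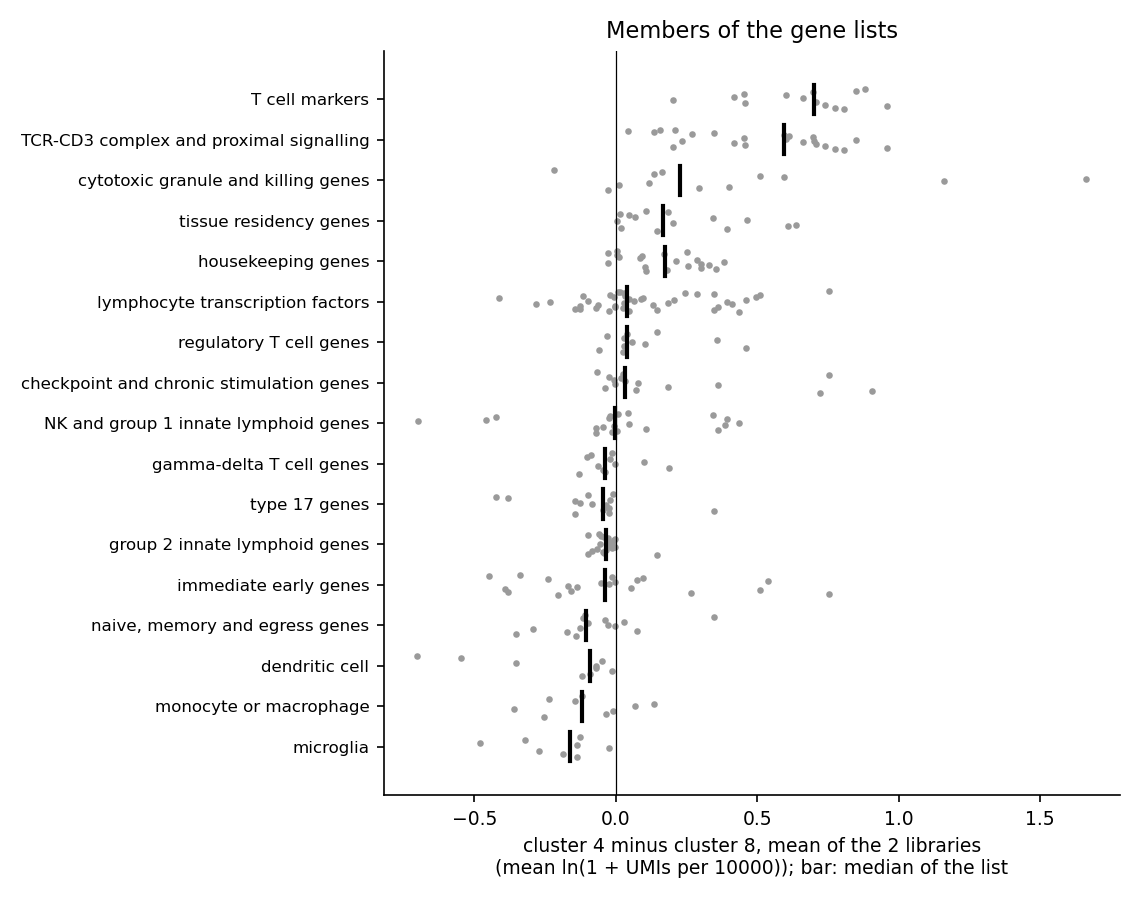
Each point is a measured member of a gene list, placed by its difference averaged over the 2 libraries, in mean ln(1 + UMIs per 10000), and the bar is the median of the list. The medians run from 0.70 for T cell markers to -0.16 for microglia markers, and those of type 17, gamma-delta and group 2 innate lymphoid genes lie just below 0.

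On the cluster 8 side, most members of the unconventional and innate lymphoid lists were higher, at low levels. Of 15 type 17 genes, 14 were higher in cluster 8 in both libraries and 1 (Rora) in cluster 4, and the median difference was -0.044. By at least 0.25, 2 of the type 17 genes were higher in cluster 8 and 1 in cluster 4. Of 11 measured gamma-delta T cell genes, 9 were higher in cluster 8 and 2 in cluster 4 (Tcrg-C2 and Trgv2), with a median of -0.037. Of 21 genes of group 2 innate lymphoid cells, 17 were higher in cluster 8 and 1 (Gata3) in cluster 4, with a median of -0.034. Of these lists 9, 8 and 8 members were detected, and the same-sign share toward cluster 8 was 21.0% over all genes. Summed levels did not all follow these counts. The gamma-delta list summed to 0.88 in both libraries in cluster 4, against 1.50 and 0.69 in cluster 8. Type 17 genes summed to 3.92 and 2.47 against 5.35 and 3.52, and group 2 genes to 1.43 and 1.18 against 2.43 and 1.50. The mean type 17 sum was 4.44 in cluster 8, 3.85 in cluster 2 and 3.54 in cluster 3. Of 12 innate lymphoid cell markers, 8 were higher in cluster 8 and 3 in cluster 4. They summed to 5.07 and 4.66 in cluster 4 against 5.19 and 4.36. Some lists of other cell types leaned the same way. All 8 microglia, 7 of 8 endothelial cell and 7 of 9 mast cell or basophil markers were higher in cluster 8. All 14 T cell markers were higher in cluster 4. Whether the counts toward cluster 8 are particular to lymphoid genes was not tested.

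Single genes of the unconventional and innate lymphoid lists showed the pattern at levels well below those of the T cell receptor. Il23r, the receptor of interleukin 23, stood at 0.082 and 0.020 in cluster 4 and 0.26 and 0.13 in cluster 8. Trdc, the constant region of the delta chain, stood at 0.21 and 0.042 against 0.35 and 0.16. Both were lower in the 6-OHDA+NDST3 library in either cluster, and for Trdc the levels of the clusters overlapped between libraries. Il1rl1, the receptor of interleukin 33, stood at 0.097 and 0.057 against 0.18 and 0.17, and Il13 at 0 and 0.0081 against 0.13 and 0.044. Kit stood at 0.11 and 0.022 against 0.21 and 0.11. Il17a, the defining cytokine of type 17 cells, reached 0.09 at most. Reads of the Tcrg-C genes could be split between near-identical copies.

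The upstream bases of Il23r (chr6:67491856-67492105, minus strand, GRCm38.p6, RefSeq) are shown because it led cluster 8 over all 9 clusters, apart from the unnamed transcript Gm20186. Capitals mark a ROR motif (TAGGTCA).
Il23r: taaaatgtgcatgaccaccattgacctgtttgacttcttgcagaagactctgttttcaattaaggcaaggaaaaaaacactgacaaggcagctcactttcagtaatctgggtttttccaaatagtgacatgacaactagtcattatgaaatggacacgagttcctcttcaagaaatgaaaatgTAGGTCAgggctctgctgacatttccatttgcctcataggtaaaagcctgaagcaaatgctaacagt
The ROR motif was in the promoters of 4 of 51 genes higher in cluster 8 by at least 0.25 (Cst3, C1qc, Plek and Baz2b), 7.84%, of 2 of 153 in the other direction, 1.31%, and of 2.97% of all genes with a promoter. No type 17 gene is among those 4.

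Tmem176a and Tmem176b, ion channel-like proteins of type 17 and myeloid cells, had the widest gaps of the type 17 list. Tmem176b stood at 0.37 and 0.084 in cluster 4 and 0.84 and 0.47 in cluster 8, and Tmem176a at 0.34 and 0.070 against 0.78 and 0.39. Both were higher still in cluster 3, at 1.54 and 1.32. The 2 genes lie in 12.1 kb of chromosome 6 (48833811 to 48845948), with their nearest starts 109 bases apart on opposite strands, so that part of the stretch upstream of Tmem176a (chr6:48841233-48841482, plus strand, GRCm38.p6, RefSeq) is also upstream of Tmem176b or within it. It is shown because the pair shares it, and capitals mark a TCF motif (CTTTGAT, on the other strand). That motif was in the promoters of 2 of 51 genes higher in cluster 8 by at least 0.25, 3.92%, against 4.29% of all genes with a promoter. The 2 were this pair.
Tmem176a: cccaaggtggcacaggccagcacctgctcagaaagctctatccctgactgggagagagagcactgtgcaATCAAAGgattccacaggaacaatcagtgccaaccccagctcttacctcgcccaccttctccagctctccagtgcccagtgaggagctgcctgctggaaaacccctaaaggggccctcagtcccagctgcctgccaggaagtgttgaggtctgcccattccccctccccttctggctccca
Without strand, reads of these overlapping genes could not be told apart.

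Genes of natural killer and group 1 innate lymphoid cells had a median difference near 0, at -0.0018. Of 20, all detected, 6 were higher in cluster 4 and 9 in cluster 8, against 42.9% and 25.8% of detected genes. After scaling to a common total the counts were 5 and 11, against 20.1% and 47.7%, and the median was -0.027. Ncr1, the receptor NKp46, stood at 0.40 and 0.049 in cluster 4 and 0.48 and 0.11 in cluster 8. Klrk1 and Klrd1, receptors that CD8 T cells also carry, were higher in cluster 4, with differences of 0.28 and 0.44 and of 0.16 and 0.62. The adaptors had the reverse order, with Tyrobp at 0.85 and 0.27 against 1.47 and 1.05 and Fcer1g at 0.80 and 0.31 against 1.17 and 0.85. Both adaptors are used by myeloid cells too, and their mean levels in cluster 1 were 3.44 and 2.97.

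The largest differences toward cluster 8 were those of Cd74, Tyrobp and Cst3. Cd74, the invariant chain of MHC class II, stood at 0.30 and 0.71 in cluster 4 and 0.96 and 1.55 in cluster 8. Cst3, a protease inhibitor abundant in microglia, stood at 2.02 and 1.74 against 2.72 and 2.44. Basp1 stood at 0.32 and 0.16 against 0.88 and 0.81, and Ctsz at 0.40 and 0.30 against 0.91 and 0.86. With Tyrobp these were the 5 genes with a large difference, and H2-Aa, Psap, Cd83, C1qa, Mef2c, Ctss, Etv6, Apoe and Fcer1g were among the other 10 of the 15 largest, with mean differences from -0.46 to -0.55. All 15 were higher in another cluster than in cluster 8.

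Of the 71 genes higher in cluster 8 by at least 0.25, none was highest there among the 9 clusters. Cluster 6 held the highest level of 27 of them, cluster 3 of 19, cluster 1 of 12, cluster 9 of 6, and clusters 2, 5 and 7 of 1, 2 and 4. At the median gene, the highest of the other 7 clusters was 1.72 above the higher of clusters 4 and 8. Of the 216 genes higher in cluster 4 by at least 0.25, 182 were highest in cluster 4 itself. Among 132 detected genes that were highest in cluster 8, 70 were higher there than in cluster 4 in both libraries, and the widest margin over the next cluster was 0.19, for Gm20186.

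**Figure D4:**
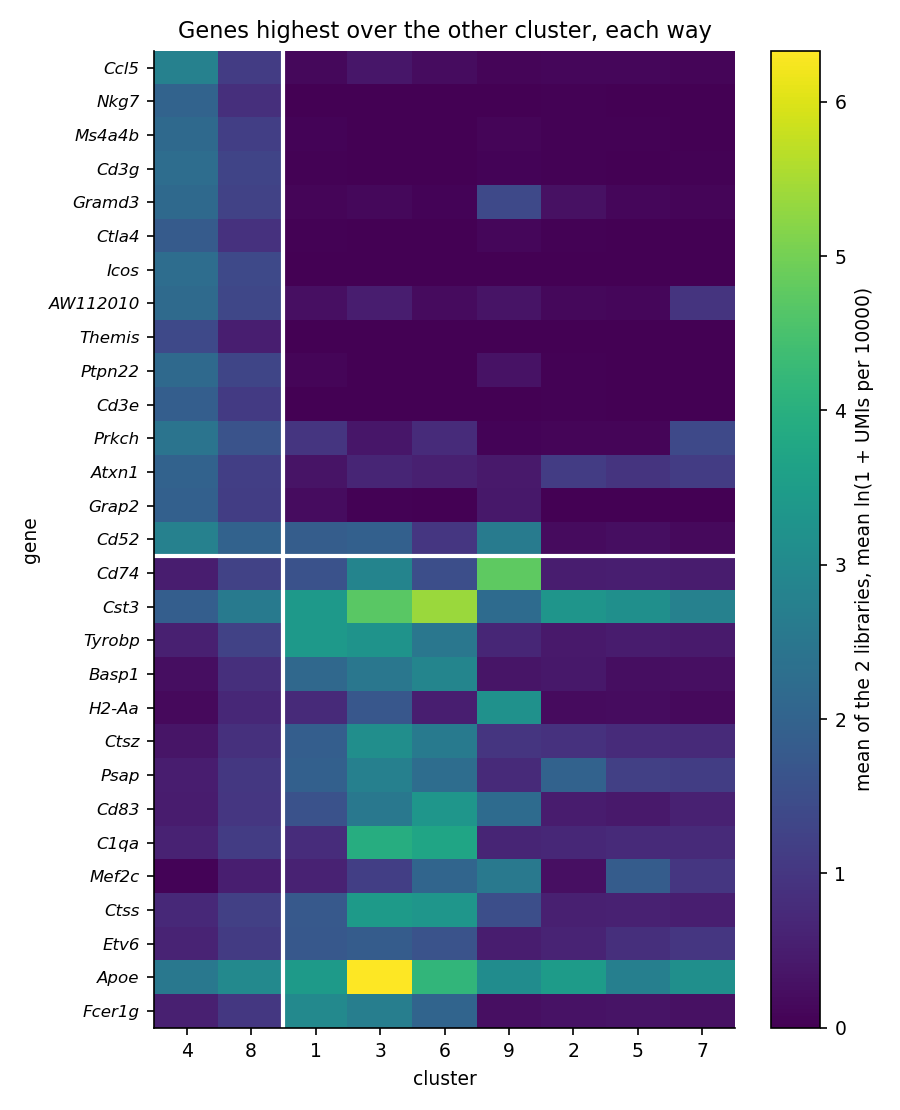
Mean level over the 2 libraries, in mean ln(1 + UMIs per 10000), of the 15 genes with the largest difference toward cluster 4 (upper block) and 14 of the 15 toward cluster 8 (lower block) in all 9 clusters. The upper genes are brightest in cluster 4, while the lower genes are brighter in clusters 1, 3, 6 or 9 than in cluster 8.

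Marker lists of other cell types were read beside these genes. All 8 microglia markers were higher in cluster 8 in both libraries, with a summed level of 0.82 and 0.74 in cluster 4 and 2.40 and 2.52 in cluster 8. Their mean summed level was 13.2 in cluster 6, 7.84 in cluster 3, and 1.71, 1.36 and 1.37 in clusters 2, 5 and 7, so cluster 4 was the lowest of the 9 and cluster 8 lay above clusters 2, 5 and 7. All 9 dendritic cell markers were higher in cluster 8, summing to 2.49 and 2.41 against 4.37 and 4.54, and 6 of 9 monocyte or macrophage markers, summing to 2.21 and 1.51 against 3.04 and 2.59. Of 12 B cell markers 8 were higher in cluster 8, summing to 0.25 and 0.42 against 0.53 and 1.14, and the defining marker Ms4a1 was at most 0.033. Beside these marker counts, 25.8% of detected genes and 21.0% of all genes were higher in cluster 8. The 3 C1q genes, neighbours in 18.7 kb of chromosome 4 (136880126 to 136898844), summed to 1.28 and 1.19 against 2.39 and 2.73. The 9 genes of the MHC class II pathway summed to 0.67 and 1.50 against 2.69 and 4.57, and H2-Aa, H2-Ab1 and H2-Eb1 share 53.4 kb of chromosome 17 (34263227 to 34316674). The part of these transcripts in the differences between clusters 4 and 8 was not tested, and droplets with more than 1 cell were limited only by an upper bound on genes per cell.

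Genes induced by stimulation lay on both sides. Of 20 immediate early genes, 6 were higher in cluster 4 and 11 in cluster 8, against 42.9% and 25.8% of detected genes. Their median difference was -0.038. Dusp2, a phosphatase of lymphocytes, stood at 1.51 and 1.40 in cluster 4 and 0.94 and 0.90 in cluster 8, and Fosl2 at 1.37 and 1.43 against 0.96 and 0.81. Fos had the opposite order, at 0.57 and 0.45 against 0.90 and 0.88, as had Jun, Zfp36 and Atf3, with mean differences of -0.39, -0.45 and -0.34. Fos, Jun, Zfp36 and Atf3 were all above 2 in cluster 5 or cluster 6.

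The gap between the clusters was not the same in both libraries. Over detected genes it was wider toward cluster 4 by at least 0.5 in the 6-OHDA+NDST3 library for 13 genes and shifted toward cluster 8 by at least 0.5 for 10. Pdcd1, the inhibitory receptor PD-1, had the largest change, at 0.55 and 1.86 in cluster 4 and 0.37 and 0.59 in cluster 8, so its difference was 0.18 in the 6-OHDA library and 1.26 in the other. Cxcr6, a receptor of resident T cells, stood at 1.20 and 1.77 against 1.03 and 0.72. S100a4, Uhrf2 and Tnfrsf9 followed, with the difference wider by 0.71, 0.70 and 0.66. Nr4a2 stood at 1.58 and 2.22 in cluster 4 and at 1.15 and 1.14 in cluster 8.

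The gap shifted most toward cluster 8 for Bach2. Bach2, a repressor that holds lymphocytes in a resting state, stood at 1.88 and 1.10 in cluster 4 and at 1.48 and 1.45 in cluster 8, so the sign of its difference turned. Gimap6, Atp11b, Sidt1 and Gm2682 came next, with changes of -0.67, -0.67, -0.64 and -0.61. Of the naive, memory and egress list, Klf2, which drives exit from tissue, stood at 1.05 and 0.50 in cluster 4 and 1.05 and 1.09 in cluster 8. Lef1, Tcf7 and S1pr1 had the same form, with cluster 4 levels of 0.70 and 0.26, of 0.57 and 0.26 and of 0.41 and 0.15. Their cluster 8 levels were 0.58 and 0.63, 0.37 and 0.47, and 0.39 and 0.51. Other members differed: in the 6-OHDA+NDST3 library Ccr7 and Cd27 were higher in both clusters, and Satb1 and Cd44 were lower in both. Of the 14 naive, memory and egress genes, 6 were lower and 3 higher there in both clusters, against 24.1% and 33.4% of detected genes. Between the clusters, 2 were higher in cluster 4 and 6 in cluster 8, against 42.9% and 25.8%. The median difference of the 14 was 0.0040 in the 6-OHDA library and -0.16 in the 6-OHDA+NDST3 library.

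**Figure D5:**
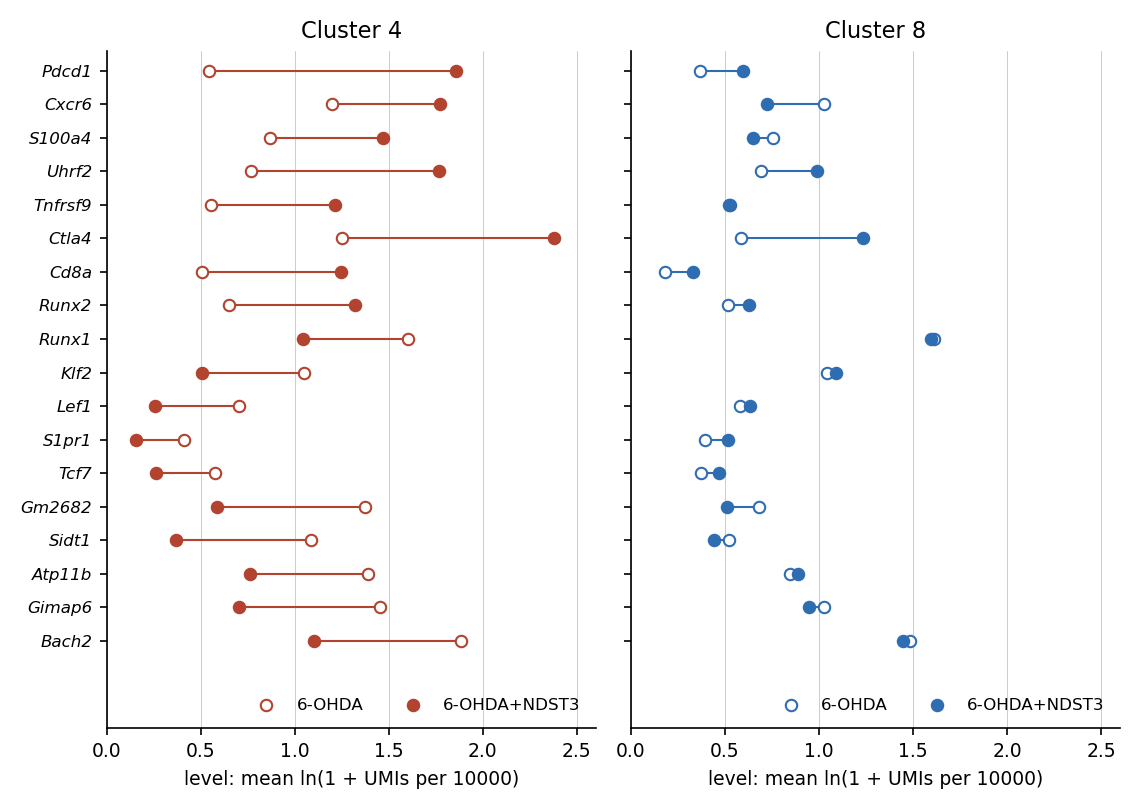
Levels of 18 genes in cluster 4 (left) and cluster 8 (right), in mean ln(1 + UMIs per 10000), with open circles for the 6-OHDA library and filled circles for the 6-OHDA+NDST3 library. In cluster 4 the genes from Pdcd1 to Runx2 lie higher and those from Runx1 to Bach2 lower in the 6-OHDA+NDST3 library, and in cluster 8 the lines are shorter for each gene.

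Between the libraries, more genes differed in cluster 4 than in cluster 8. In cluster 4, 21 genes were higher and 12 lower by at least 0.5 in the 6-OHDA+NDST3 library, and in cluster 8 the counts were 3 (Ctla4, Cd74 and Cd3g) and 0. Of the 21, 18 were also higher in cluster 8, with a median of 0.22 there. Of the 12, 10 were also lower in cluster 8, with a median of -0.12. The genes were picked by their change in cluster 4, so their cluster 4 medians, 0.66 and -0.65, follow from that choice. They were not compared with those of cluster 8. Of all detected genes, 33.4% were higher and 24.1% lower in the 6-OHDA+NDST3 library in both clusters. The cluster 4 column of the 6-OHDA library had the fewest genes above 0 of the 4 columns, 12929, and the part of cell number in these differences was not tested.

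Of 20 natural killer and group 1 innate lymphoid genes, 18 were lower in the 6-OHDA+NDST3 library in both clusters and 1 (Itga1) was higher in both, against 24.1% and 33.4% of detected genes. The 20 genes summed to 9.66 and 5.67 in cluster 4 and to 9.37 and 5.36 in cluster 8. Ncr1, given above, Klrb1b (0.40 and 0.030 in cluster 4, 0.35 and 0.074 in cluster 8) and Cd7 (0.53 and 0.20, 0.56 and 0.21) were examples. The receptor gene Klrc1, not on this list, had the opposite order, at 0.64 and 1.08 in cluster 4 and 0.15 and 0.26 in cluster 8. Genes of the T cell receptor had the opposite order between libraries, with the 23 TCR-CD3 genes summing to 29.2 and 33.8 in cluster 4 and 17.4 and 22.3 in cluster 8. The median gap of this list between the clusters was 0.63 and 0.48 in the 2 libraries. The checkpoint list summed to 6.07 and 10.95 in cluster 4 and to 4.46 and 6.52 in cluster 8.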

How the data were processed

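scRNA-seq of mouse brain (1 library per group) was analysed from a table in which the authors deposited, per gene, the mean of each of 9 clusters in each library. The header calls these mean counts, but they have the form of natural log values that the authors made per cell as ln(1 + UMIs per 10000) before averaging and deposited. Per the study's methods, the authors aligned reads to mm10 with Cell Ranger, removed cells with under 200 or over 8000 genes or over 10% mitochondrial reads, normalized in Seurat, merged the libraries and clustered the cells.

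Here 4 rows with repeated names were left out, and cluster 8 was subtracted from cluster 4 in each library. A large difference was at least 0.5 in both libraries. No test was made. Some genes are not reported here by name. All columns of values were assigned to a library. Members and gene lists were chosen with earlier results of these data known. Genes named are the 15 largest differences each way, list members with large differences or near 0, the 5 largest changes in the gap each way and the 3 genes by which the study marks the clusters; others were picked from the lists after their values were seen. The subtraction and counting were tested on simulated data. Promoters came from RefSeq (GRCm38.p6). Python 3.11.15, pandas 2.3.3 and numpy 2.4.6 were used.

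Other sizes, filters, scalings and single libraries were tried as alternatives. The RNA-seq, CUT&RUN and ATAC-seq files were not used here. Depth is unknown, so no interval is given.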

Additional observations from a re-analysis of the deposited data

Results flagged for a closer look

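The gap between the clusters pointed in opposite directions in the libraries, by at least 0.25 for 2 genes, Bach2 and Rasa3, and the difference between the libraries was not tested. For Bach2, cluster 4 minus cluster 8 was 0.400 in the 6-OHDA library and -0.343 in the 6-OHDA+NDST3 library. For Rasa3, an inhibitor of Ras and Rap signalling, it was 0.251 and -0.263, from levels of 0.64 and 0.28 in cluster 4 and 0.39 and 0.55 in cluster 8. In both genes the cluster 4 level was lower in the 6-OHDA+NDST3 library, while in cluster 8 Bach2 differed by -0.035 between the libraries and Rasa3 was higher in the 6-OHDA+NDST3 library.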

How the results depend on the processing

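With 1 library per group, the distance between the libraries is the only spread, and it includes the NDST3 treatment. The count of genes higher in cluster 4 was 216 at a size of 0.25, 1 at a size of 1 and 23 after scaling to a common total, and that of genes higher in cluster 8 was 71, 0 and 13. With a level of at least 1 required in 1 column, 3 genes were higher in cluster 8. From 1 library alone the counts ran from 69 to 87 and from 7 to 21. After scaling, the medians were 0.435 for TCR-CD3 genes, -0.0519 for type 17 genes, -0.0266 for natural killer and group 1 genes, 0.0316 for housekeeping genes, -0.125 for immediate early genes and 0.020 for checkpoint genes. After centring, type 17 was at -0.0589 and natural killer and group 1 at -0.0166. From 1 library alone, TCR-CD3 ran from 0.481 to 0.633, type 17 from -0.0563 to -0.0474, dendritic cell from -0.130 to -0.0776, housekeeping from 0.172 to 0.204, group 2 innate lymphoid from -0.0624 to -0.0105, gamma-delta from -0.0579 to -0.0162, cytotoxic from 0.141 to 0.286, immediate early from -0.0752 to -0.0194, transcription factors from 0.038 to 0.063, and natural killer and group 1 from -0.0157 to 0.000159, which turned its sign (without the 6-OHDA+NDST3 library). Of 33 named genes, 16 under scaling and 4 under centring moved by more than the standard deviation of their differences in the 2 libraries. None changed sign under these settings or with 1 library. Scaling moved the median detected gene by -0.054 on the log2 scale. No paired analysis was possible because each group has 1 library and the results come from no test.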

Other observations

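Gene families defined by symbol, chosen after values were seen, also differed. Of 82 ribosomal protein genes, 77 were higher in cluster 4 in both libraries, with a median difference of 0.26, and Rps15a was the member with a large difference. After scaling to a common total, 59 were higher in cluster 4 and 11 in cluster 8, with a median of 0.098. Of 13 mitochondrial transcripts, 11 were higher in cluster 8, with medians of -0.14 in the 6-OHDA library and -0.41 in the 6-OHDA+NDST3 library, and after scaling the median was -0.45. Of the 20 housekeeping genes fixed as a list, 16 were higher in cluster 4 and 1 in cluster 8, and after scaling 11 and 5. Beside these counts, 42.9% and 25.8% of detected genes were higher in cluster 4 and cluster 8 before scaling, and 20.1% and 47.7% after.

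The 9 Gimap genes, GTPases of lymphocyte survival, had a median difference of 0.31 in the 6-OHDA library and 0.057 in the 6-OHDA+NDST3 library. Gimap4 stood at 1.04 and 0.58 in cluster 4 and 0.49 and 0.50 in cluster 8, and Gimap7 at 0.68 and 0.27 against 0.29 and 0.21. After scaling, the median of the family was 0.24 and -0.022. Of 26 interferon-stimulated genes, 17 were higher in cluster 4 and 4 in cluster 8, with a median of 0.042, and Ly6a, also abundant in cluster 7, was the only large difference. Of 14 stress and heat shock genes, 1 was higher in cluster 4 and 8 in cluster 8, with a median of -0.039. Of 17 chemokine receptors, 5 were higher in cluster 4 and 8 in cluster 8. Beside these lists, 42.9% and 25.8% of detected genes were higher in cluster 4 and cluster 8. Ccr7 stood at 0.16 and 0.26 in cluster 4 and 0.41 and 0.72 in cluster 8.

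Of 19 measured cell cycle genes, 6 were higher in cluster 4 and 7 in cluster 8, against 16.7% and 21.0% of all genes, and Mki67 was at most 0.063. Of 9 measured mast cell or basophil markers, 7 were highest in cluster 8, though none was above 0.1 in any of the 4 columns. Among detected genes, which leave out these markers, 132 of 7164 were highest in cluster 8. They summed to 0.33 and 0.37 in cluster 8, against 0.062 and 0.038 in cluster 4. The summed level of the 9 markers was highest in cluster 1, at 1.45, of which Hdc alone held 1.36. It was 0.67 in cluster 7, with 0.66 from Gata2, and 0.62 in cluster 2, with 0.59 from Hdc. The mean in cluster 8 was 0.35. Mcpt2 was at 0 and 0.00097 in cluster 4 and 0.097 and 0.11 in cluster 8, where it was the highest of the 9 clusters.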
